A study of Mus musculus with 2 samples.

Results

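Epcam-positive epithelial cells were picked out of 2 single-cell RNA-seq libraries of orthotopic pancreatic tumors. A cell was a member when it held at least 2 UMIs (unique molecular identifiers, each standing for 1 captured RNA molecule) of Epcam and at least 2 UMIs over Cdh1, Muc1, Sox9, Cldn7 and Chga, no UMI of Ptprc or Pecam1, and less than 5% of its UMIs from 5 acinar enzyme genes (Prss2, Ctrb1, Cela1, Clps and Try4). The rule found 57 members among 20428 kept cells. There were 21 of 8739 cells in the FLOX library (0.240%, 95% interval 0.149 to 0.367%) and 36 of 11689 in the library labelled MCT1-KO (0.308%, 0.216 to 0.426%). Epcam and the 5 panel genes chose these cells, so their levels are given only as a description.

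Epcam and Cdh1 encode adhesion molecules that hold epithelial cells together, Muc1 a mucin of the apical surface, and Sox9 a transcription factor of duct and progenitor cells. In the normal pancreas the ducts carry the enzymes of the acinar cells to the gut and add bicarbonate through the chloride channel Cftr, while islet cells keep epithelial adhesion genes and release peptide hormones such as insulin, glucagon and somatostatin from chromogranin-rich granules. Cells that pass through an epithelial-to-mesenchymal transition lose junction genes and gain genes such as Vim, but can keep the simple keratins Krt8 and Krt18. The members were described against cells with at least 2 UMIs of Krt8 plus Krt18 and no Epcam UMI, called comparison cells below. They passed the same filters otherwise (2559 in FLOX and 4502 in MCT1-KO). They were chosen by these counts alone, and whether they had passed through such a transition was not tested.

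Both tumors were started with KPC cells (a murine pancreatic carcinoma line of a sex not given in the sources used here) injected into the pancreas of male mice, whose strain and age were not given for these hosts in the sources used here. MCT1 is the lactate transporter encoded by Slc16a1. The FLOX hosts carried MCT1 fl/fl alleles, and the MCT1-KO hosts were Col1a2-CreERT2 MCT1-/- mice, in which tamoxifen given before the injection deletes the gene in cells that express Col1a2, a collagen gene of stellate cells and fibroblasts, and not in epithelium or in the injected cells. The study's scheme gave tamoxifen or corn oil before the KPC cells, without stating which the FLOX hosts received. A difference between the libraries could thus not be told apart from one of this treatment. Each group was 1 library of unsorted tumor cells. No difference between the groups could be tested with 1 library each, and every interval below is a 95% exact interval for counting error only.

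The libraries held 177334432 UMIs (FLOX) and 151118092 UMIs (MCT1-KO). In cells with at least 0.5% collagen UMIs, where the deletion should act, Slc16a1 was at 25.9 CPM (counts per 1000000 summed UMIs of a cell set) in FLOX and at 32.8 CPM in MCT1-KO, from 40 and 50 UMIs. The ratio of 1.26 (0.817 to 1.97) did not show the lower level that the label implies, and its interval included 1. The paper reports reduced MCT1 protein and RNA in primary stellate cells of its knockout mice. It also reports reduced MCT1 in the stellate cells of its single-cell data. Whether the counted 3′ reads lie outside the deleted part was not tested, nor was any other cause of this ratio. MCT1-KO is used below only as the name of that library. Of all barcodes, 59 were kept in both libraries, and no member barcode was kept in the other library.

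The members held 214098 UMIs in FLOX (median 7194 a cell, 2958 to 30379) and 294817 in MCT1-KO (median 6890, 751 to 22087). The comparison cells were deeper, with medians of 14799 and 13862 UMIs. Median Epcam was 4 UMIs a member in FLOX and 7.5 in MCT1-KO, with highest values of 17 and 29. Cdh1 was found in 17 of 21 and 28 of 36 members, Sox9 in 15 and 22, Cldn7 in 13 and 29, and Muc1 in 10 and 11. Chga, the chromogranin of hormone granules, was absent from the FLOX members and was found in 3 members of MCT1-KO. Exactly 2 Epcam UMIs, the lowest number allowed, were held by 2 FLOX and 7 MCT1-KO members, and 12 and 28 further cells met every other criterion with 1 Epcam UMI. A panel sum of exactly 2 was found in 1 and 5 members, and 2 and 5 cells failed the rule with a panel sum of 1. The highest share of the acinar genes of the rule in a member was 2.83% in FLOX and 4.63% in MCT1-KO, below the limit of 5%.

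The name of duct and islet epithelium covered most but not all of the members. Sorted in turn by genes outside the rule, 36 of 57 members (63.2%, 49.3 to 75.6%) carried duct genes, 3 carried hormone genes, 5 stomach genes, 3 immunoglobulin genes and 5 acinar-state genes, and 5 fell in none of these profiles. The gene sets and limits of the profiles were set after the values were seen, and a profile is a range of gene sums and not a cell type. The duct profile needed at least 3 UMIs over Ambp, Pkhd1, Dcdc2a, Pigr, Prom1, Cftr and Wfdc15b, the hormone profile at least 2 UMIs over Chgb, Scg2, Pcsk2, Neurod1 and Isl1, and the acinar-state profile at least 20 UMIs over Dmbt1, Eif2ak3, Gatm and Itga6. The stomach and immunoglobulin profiles needed 1% of a cell's UMIs. The duct limit lay between close values, since its lowest member held 3 UMIs and the highest cell in no profile 1, and 2 FLOX and 7 MCT1-KO duct-gene members held 3 to 5 UMIs. Among members not already placed in an earlier profile, on either side of the other limits lay 25 against 11 acinar-state UMIs, 21 against 1 UMIs of the hormone profile, stomach shares of 1.21% against 0.0607% and immunoglobulin shares of 22.2% against 0.133%. A member already placed with stomach genes held 14 acinar-state UMIs. The duct limit was also met by 3 members with stomach genes (3, 15 and 3 UMIs), the FLOX member with acinar-state genes (3 UMIs) and 1 with hormone genes (3 UMIs), which were counted under the earlier profile, so the share with duct genes depends on this order.

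Members with duct genes were 13 of 21 in FLOX (61.9%, 38.4 to 81.9%) and 23 of 36 in MCT1-KO (63.9%, 46.2 to 79.2%). All 5 members with stomach genes came from FLOX (23.8%, 8.22 to 47.2% of its members), while 0 of 36 in MCT1-KO allowed a share of up to 9.74%. All 3 members with hormone genes came from MCT1-KO (8.33%, 1.75 to 22.5%), and 0 of 21 in FLOX allowed up to 16.1%. With 1 Epcam UMI allowed, hormone genes marked 3.03% of the FLOX and 4.69% of the MCT1-KO cells taken, so their limit to MCT1-KO rested on the Epcam limit. Immunoglobulin genes marked 1 FLOX and 2 MCT1-KO members, acinar-state genes 1 and 4, and no profile was met by 1 and 4.

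**Figure D1:**
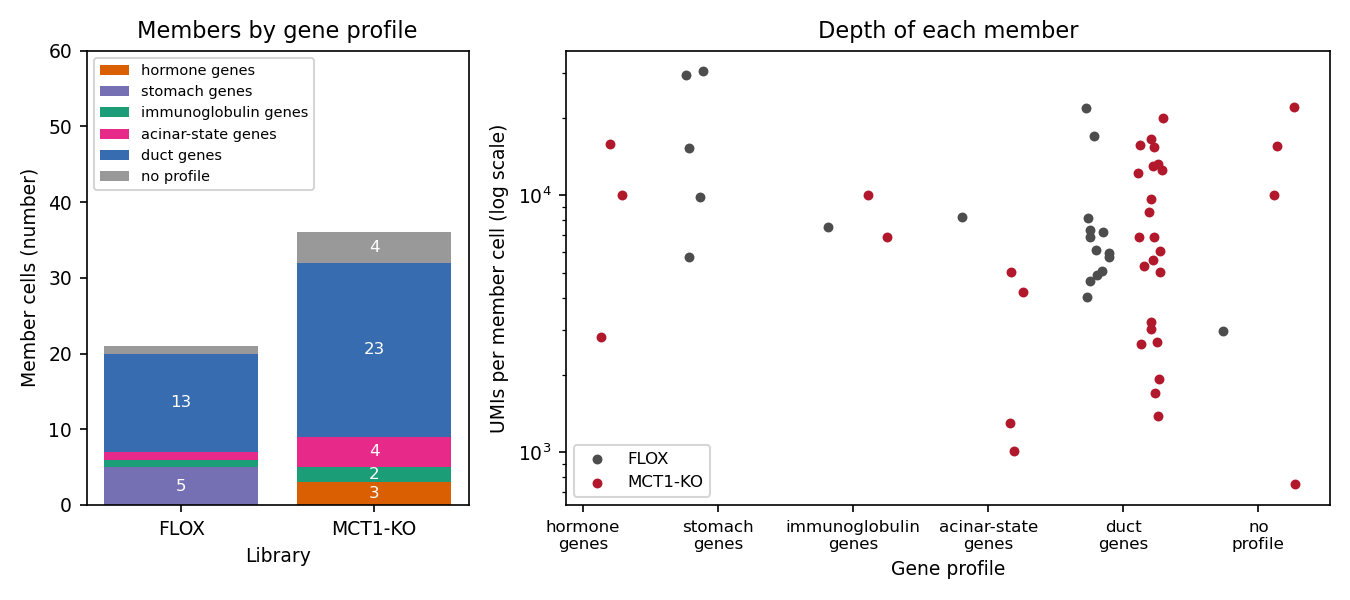
Number of members in each gene profile by library (left, stacked bars) and UMIs of each member on a log scale (right, 1 point a cell, FLOX grey and MCT1-KO red). Members with duct genes were 13 in FLOX and 23 in MCT1-KO, the 5 cells with stomach genes were all FLOX and the 3 with hormone genes all MCT1-KO.

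UMIs of other cell types were counted beside these profiles. At least 3 UMIs over 3 immune genes (Tyrobp, Fcer1g and Laptm5), 3 collagen genes and the endothelial genes Cdh5 and Plvap were held by 11 of 21 FLOX members but by 3 of 36 MCT1-KO members. A fixed list of 12 immune markers summed to 2676 CPM over the FLOX members and 929 CPM over the MCT1-KO members, with 2 genes of the list at 0 in each. In barcodes with 10 to 100 UMIs, taken as empty, the same list stood at 11959 and 7004 CPM, and in cells with at least 2 Ptprc UMIs at 33005 and 26796 CPM. The part of these UMIs in the results was not tested, and values without the cells that hold them are given for some results only.

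Junction genes outside the rule were far higher in the members than in the comparison cells. Cldn3, a claudin of tight junctions, stood at 238 CPM (177 to 313) over the FLOX members and 509 CPM (431 to 597) over the MCT1-KO members, against 0.771 and 1.5 CPM in comparison cells. It was found in 14 of 21 and 28 of 36 members. The desmosome genes Dsp (plaque protein desmoplakin) and Dsg2 (adhesive desmoglein) showed the same pattern. Dsp was at 88.7 CPM in FLOX and 193 CPM in MCT1-KO, from 19 and 57 UMIs, where the far larger comparison sets held 1 and 2 UMIs. Dsg2 was at 187 and 421 CPM against 0.0616 and 0.181 CPM. Cldn4, a second claudin, was at 206 and 315 CPM against 0.0308 and 0.181 CPM, and Rab25, a GTPase of apical recycling, at 107 and 95 CPM against 0.185 and 0.0181 CPM. Other members of the list differed less or not in both libraries. Spint2, an inhibitor of surface proteases, was 3.68-fold (2.98 to 4.48) and 3.08-fold (2.55 to 3.69) higher, and F11r (junctional adhesion molecule A) 1.99-fold (1.34 to 2.85) and 3.18-fold (2.36 to 4.21) higher. Jup, the plakoglobin shared by desmosomes and adherens junctions, was at 56.0 CPM against 69.6 in FLOX, a ratio of 0.805 (0.415 to 1.41), and at 163 CPM against 72.3 in MCT1-KO.

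Of the 25 junction genes, 24 had a UMI in the members of each library. Genes with at least 50 UMIs over members and comparison cells were compared, 8 of the list in FLOX and 12 in MCT1-KO. In FLOX 6 of the 8 were at least 2-fold higher in members and 0 lower, where 12.4% of all 11780 compared genes were higher and 16.6% lower. In MCT1-KO all 12 were at least 2-fold higher, where 16.1% of all 12588 compared genes were higher and 13% lower. With cells holding at least 3 UMIs of the immune, collagen and endothelial genes left out of both sets, 4 genes in FLOX and 11 in MCT1-KO were higher. The median ratio of the list was 3.48 in FLOX and 21.1 in MCT1-KO, beside 0.771 and 0.887 over all compared genes. These counts favour a difference, because a gene near absent from comparison cells, such as Dsp, Dsg2 and Cldn4 in MCT1-KO, reached 50 UMIs only through the members. Ocln, a tight junction protein, had 10 and 21 member UMIs, against 3 and 25 in comparison cells, and was not compared in either library.

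Some regulators of epithelial identity were near absent from comparison cells, some stood at like levels in both cell sets, and Pdx1 was lower in the members of MCT1-KO. Esrp1, a splicing factor that maintains epithelial isoforms, was at 46.7 CPM in FLOX members and 47.5 CPM in MCT1-KO members (10 and 14 UMIs) against 2 UMIs in each comparison set. Grhl2, a transcription factor that activates junction genes, was at 51.4 and 47.5 CPM against 0.0308 and 0.0907 CPM. Onecut1 (hepatocyte nuclear factor 6, a factor of duct development) was at 51.4 and 81.4 CPM, with 1 UMI in each comparison set. By contrast Ehf, an ETS factor of epithelia, was at 159 and 210 CPM in members and 171 and 148 CPM in comparison cells, and Klf5 at 98.1 and 119 CPM against 85.6 and 123 CPM. Pdx1, a factor of pancreatic progenitors and beta cells, had 5 UMIs in FLOX members and 0 in MCT1-KO members, where comparison cells stood at 43.3 and 38.7 CPM. Of the 20 factors, 4 of 8 compared in FLOX and 5 of 9 in MCT1-KO were at least 2-fold higher in members, beside 12.4 and 16.1% of all compared genes, and 0 and 1 lower, beside 16.6 and 13%.

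Promoters were searched on either strand for ATCAAT, letters at the core of sites of the ONECUT family, because Onecut1 was among these factors. They were found in 2087 of 27025 RefSeq promoters (7.72%), taken as the 250 bases before the gene start, and in 9 of the 73 promoters available for 110 listed epithelial, duct and endocrine genes. Tspan8, a tetraspanin on the duct list, and Gc, the vitamin D-binding protein, are shown because their levels set them apart. Tspan8 was at 430 and 17 CPM in FLOX and MCT1-KO members, against 414 and 327 CPM in comparison cells. The FLOX sum includes the 5 members with stomach genes, which held 42.3% of the FLOX member UMIs and had no counterpart in MCT1-KO. The part of these cells in the Tspan8 difference was not tested. Gc had 10 UMIs in 5 FLOX members and 21 UMIs in 4 MCT1-KO members, and stood at 0.277 and 0.181 CPM in comparison cells. The stretches lie in GRCm38.p6 at chr10:115817034-115817283 on the plus strand for Tspan8 and at chr5:89457899-89458148 on the minus strand for Gc, with the match in capitals. The match begins 219 bases before the start of Tspan8 and 214 before that of Gc, and is a description of letters, not a shown binding site.
Tspan8: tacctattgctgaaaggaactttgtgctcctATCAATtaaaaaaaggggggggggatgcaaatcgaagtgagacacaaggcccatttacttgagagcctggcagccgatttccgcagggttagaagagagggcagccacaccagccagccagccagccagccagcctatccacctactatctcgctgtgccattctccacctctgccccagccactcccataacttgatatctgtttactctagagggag
Gc: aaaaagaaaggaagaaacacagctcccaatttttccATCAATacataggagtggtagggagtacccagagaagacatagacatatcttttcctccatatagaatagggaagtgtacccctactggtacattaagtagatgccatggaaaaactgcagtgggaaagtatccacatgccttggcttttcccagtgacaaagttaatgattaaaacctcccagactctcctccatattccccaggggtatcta
The same search found TGTTTAC (forkhead factors of the FOXA group) in 3.54% of all promoters and in 3 of the 73, Tspan8 among them, and CAAAGTCCA (HNF4) in 0.451% and in 0.

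Keratins were higher in the members even against cells chosen for Krt8 and Krt18. Krt8 was at 1822 and 2914 CPM in members against 430 and 543 CPM, and was found in 21 of 21 and 34 of 36 members. Krt18 was 1.98-fold (1.74 to 2.25) and 4.54-fold (4.23 to 4.86) the comparison level. Krt19, a keratin of duct and stomach surface epithelium, was at 645 CPM in FLOX and 349 CPM in MCT1-KO against 38.6 and 46.3 CPM, but 44.9 and 41.7% of its member UMIs lay in 1 cell of each library. At least 2-fold higher levels were found for 2 of 4 compared keratins in FLOX and 5 of 5 in MCT1-KO, where 12.4 and 16.1% of all compared genes were higher.

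Many genes of the duct list were also higher in members. Pkhd1, which encodes fibrocystin of the primary cilium, was at 243 CPM (181 to 319) in FLOX members and 397 CPM (328 to 476) in MCT1-KO members against 1.66 and 1.52 CPM. Ambp, the precursor of a secreted protease inhibitor, was at 397 CPM (317 to 491) in FLOX members and 448 CPM (375 to 531) in MCT1-KO members, where the comparison sets held 8 and 7 UMIs. Pigr, which carries polymeric immunoglobulin across epithelium, was at 285 and 241 CPM, with 3 UMIs in each comparison set. Clu, a secreted chaperone, was 42.6-fold (40.2 to 45.1) and 48.4-fold (46.1 to 50.9) the comparison level and was found in 19 of 21 and 32 of 36 members. Spp1 (osteopontin), which duct cells, macrophages and tumor cells make, was at 10056 and 9101 CPM in members and still at 3352 and 2377 CPM in comparison cells. Of the 23 genes on the duct list, 23 had a UMI in members of each library, 11 of 19 compared in FLOX and 15 of 22 in MCT1-KO were at least 2-fold higher (12.4 and 16.1% of all compared genes), and 2 and 3 at least 2-fold lower (16.6 and 13% of all). Ambp and Pigr reached 50 UMIs only through the members, so their place in these counts was fixed by the filter. Outside the lists, the genes with the largest ratio in both libraries included Tstd1, of the sulfurtransferase family (439 and 580 CPM against 0.493 and 0.363), Tm4sf4, a tetraspan protein (355 and 767 against 0.801 and 0.816), Fxyd3, a sodium pump regulator (1453 and 502 against 1.33 and 1.25), and Mmp7 (matrilysin, 448 and 790 against 6.04 and 2.74). Tstd1 and Tm4sf4 in both libraries, and Fxyd3 in FLOX, reached 50 UMIs only through the members. Their high ratios there were thus fixed by the filter and are a description. For Fxyd3, the 5 FLOX members with stomach genes held 217 UMIs and the 13 with duct genes 91. Ighg1 also led, with 99.8 and 99.6% of its member UMIs in 1 cell of each library.

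Most compared mesenchymal genes lay on the other side. Vim was at 528 CPM (435 to 635) in FLOX members and 600 CPM (515 to 696) in MCT1-KO members against 2843 and 3530 CPM, and 42.5 and 49.2% of these member UMIs lay in 1 cell. Zeb1, a repressor of Cdh1, was 0.236-fold (0.102 to 0.465) and 0.367-fold (0.209 to 0.596) the comparison level. S100a4 was 0.271-fold and 0.0783-fold, and Sparc 0.184-fold and 0.313-fold the comparison level. Acta2, on a separate list of fibroblast and mural genes, was 0.123-fold and 0.1-fold. Of the 9 compared genes of that list, 6 in FLOX and 4 in MCT1-KO were at least 2-fold lower, beside 16.6 and 13% of all compared genes. On the same list 1 and 2 were at least 2-fold higher, beside 12.4 and 16.1%. In each library 8 of 12 compared mesenchymal genes were at least 2-fold lower in members and 1 higher, with medians of 0.254 and 0.292, where 16.6 and 13% of all compared genes were lower and 12.4 and 16.1% higher. Genes listed as the state of the KPC tumor cells were chosen from earlier results of these libraries, so they are plotted as a description and no count is read from them. Outside the lists, the 10 genes with the lowest ratios in both libraries included Ereg, an EGF receptor ligand (0.0669-fold in each), and the Wnt receptor and target gene Lgr5 (0.120-fold and 0.0671-fold). The Wnt inhibitor Notum (0.137-fold and 0.105-fold) and the activin subunit Inhba (0.0683-fold and 0.140-fold) were also among them. These 4 genes rested on 2 to 10 member UMIs a library.

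**Figure D2:**
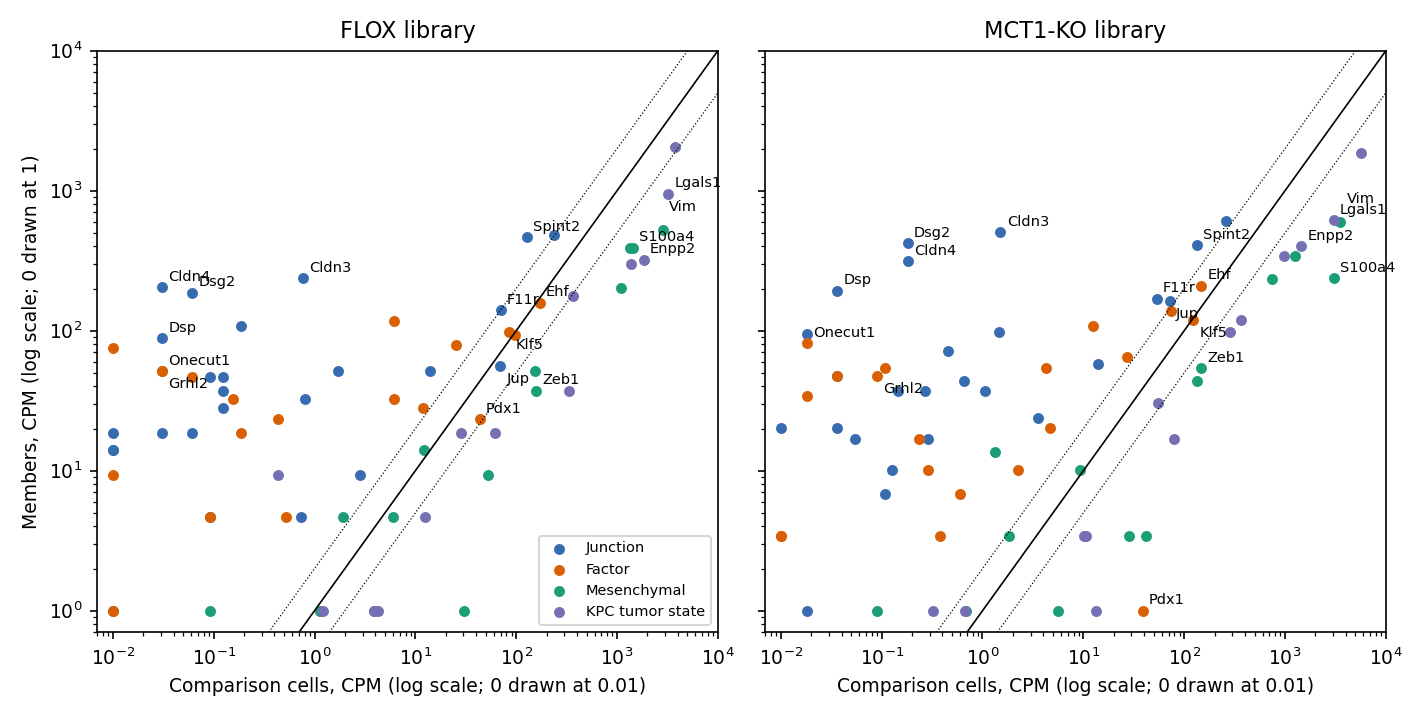
Level of each junction, factor, mesenchymal and KPC tumor state gene in members (y axis, CPM, log scale, 0 drawn at 1) against comparison cells (x axis, CPM, log scale, 0 drawn at 0.01), 1 panel a library. The solid line marks equal levels and the dotted lines 2-fold differences. Cldn3, Cldn4, Dsp and Dsg2 lie far above the lines, Ehf and Klf5 lie between the dotted lines, and Vim, S100a4 and Zeb1 lie below.

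Transcripts of Y-linked genes separated members from comparison cells. Ddx3y, Eif2s3y, Kdm5d and Uty, which male cells express broadly, summed to 1.12 UMIs per 10000 in FLOX members (0.718 to 1.67, 24 UMIs) and 1.87 in MCT1-KO members (1.41 to 2.43, 55 UMIs). Comparison cells stood at 0.0965 and 0.0500 per 10000. The members were thus 11.6-fold (7.33 to 17.6) and 37.3-fold (27.4 to 49.9) higher. Ptprc-positive cells, which are host leukocytes, stood at 1.89 and 1.55 per 10000, and collagen-rich cells at 2.38 and 2.06. Members were 0.593-fold (0.379 to 0.885) the Ptprc-positive level in FLOX and 1.20-fold (0.901 to 1.58) in MCT1-KO. Empty barcodes held 0.278 and 0.227 per 10000, below the members of both libraries.

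A Y-linked UMI was found in 11 of 21 FLOX members and 25 of 36 MCT1-KO members, in cells of every profile. The duct-gene members alone stood at 1.15 per 10000 (0.592 to 2.00) and 1.53 (1.03 to 2.20). Thinned to 1000 UMIs a cell, 14.3% of the members of each library held a Y-linked UMI (3 of 21 and 5 of 35), with 0 FLOX and 1 MCT1-KO member left out as too shallow. Of the thinned duct-gene members it was 0 of 13 in FLOX, which allows a share of up to 24.7%, and 3 of 23 in MCT1-KO (13.0%, 2.78 to 33.6%). The thinned share was 1.5 and 0.736% in comparison cells and 21.1 and 16.3% in Ptprc-positive cells. Xist, the RNA of the inactive X chromosome in female cells, had 0 UMIs in members and 10 and 9 UMIs in the comparison sets. At the Epcam limit of the rule, cells with 1 Epcam UMI that met the other criteria held 0.119 and 0.331 Y-linked UMIs per 10000, and members with exactly 2 held 0.468 and 5.01.

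**Figure D3:**
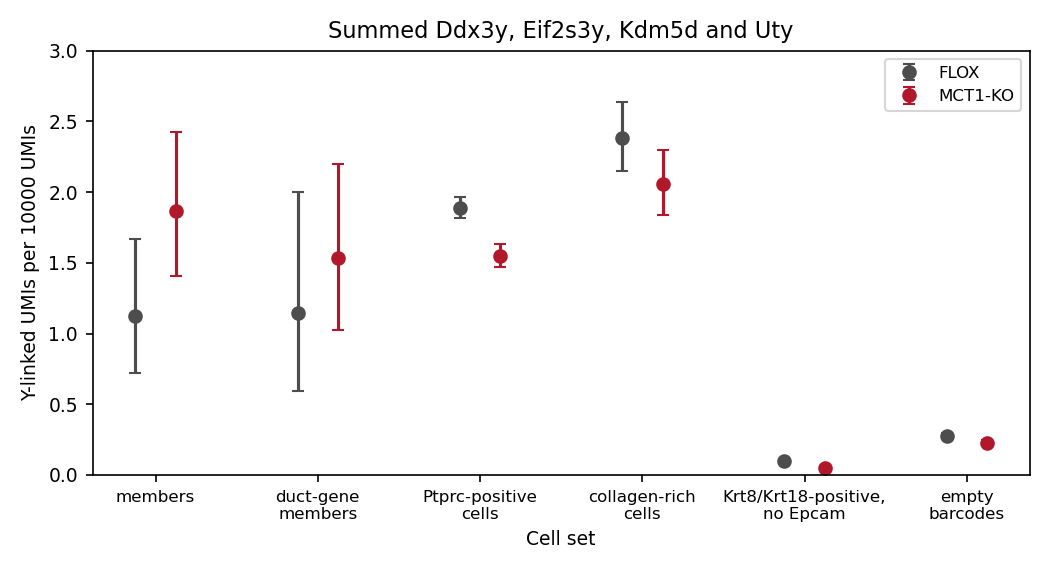
Y-linked UMIs (Ddx3y, Eif2s3y, Kdm5d and Uty) per 10000 UMIs in each cell set of the FLOX and MCT1-KO libraries, with 95% exact Poisson intervals for counting error as bars. Members (1.12 and 1.87) lie above comparison cells (0.0965 and 0.0500), and Ptprc-positive cells stand at 1.89 and 1.55.

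The duct-gene members varied widely among themselves. Spp1 ranged over single cells from 5183 to 52135 CPM in FLOX (median 18642) and from 1540 to 48122 CPM in MCT1-KO (median 11486). Clu ranged from 1972 to 35899 CPM (median 11094) and from 4432 to 26306 CPM (median 9568). Both genes were found in every duct-gene member, and the ranges of the libraries overlapped. Lcn2 (lipocalin 2, an iron-siderophore binder of inflamed epithelium) was also found in every one, from 556 to 15279 CPM in FLOX and 308 to 14187 CPM in MCT1-KO. Sox9, a gene of the rule, was found in 9 of 13 and 18 of 23. Cftr, the chloride channel and a gene of the profile, had 4 UMIs in 3 FLOX cells and 25 UMIs in 12 MCT1-KO cells, with 0 UMIs in both comparison sets. Ttr (transthyretin), found in liver and islet cells, had 82 UMIs in 7 of 13 and 151 UMIs in 19 of 23.

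A few duct-gene members held most S100a6 UMIs, which was noticed after the values were seen. In MCT1-KO 4 cells with at least 40 S100a6 UMIs held 304 of 383, with a median depth of 9938 UMIs against 6092 in the others. They had 4576 CPM of Spp1 against 15408 CPM in the other 19 cells, and a median of 5 UMIs over the 7 genes of the duct profile against 19. Other genes were higher in these 4 cells, with Clu at 11140 against 9215 CPM, Tm4sf4 at 1413 against 949 CPM and Mmp7 at 1869 against 1050 CPM. Krt8 (3019 against 4370 CPM), Sox9 (240 against 969), Lcn2 (5438 against 6688) and Ambp (192 against 840) were lower in them. In FLOX 2 such cells held 132 of 245 S100a6 UMIs, with 5906 CPM of Spp1 against 24519 CPM in the other 11. There Clu (2713 against 16456 CPM), Tm4sf4 (103 against 952 CPM) and Mmp7 (0 against 1242 CPM) were lower too. The median depth of these FLOX cells was 14562 UMIs against 5949, so the raw limit of 40 picked deeper cells in each library. Both FLOX cells and 1 of the 4 in MCT1-KO also held at least 3 UMIs of the 8 immune, collagen and endothelial genes (15, 4 and 16 UMIs), and 1 of the FLOX cells held 48 UMIs of Vim and 62 of Ptn. The part of these UMIs in the split was not tested. S100a6 encodes a calcium-binding protein that the comparison cells carried at 3736 and 5626 CPM.

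**Figure D4:**
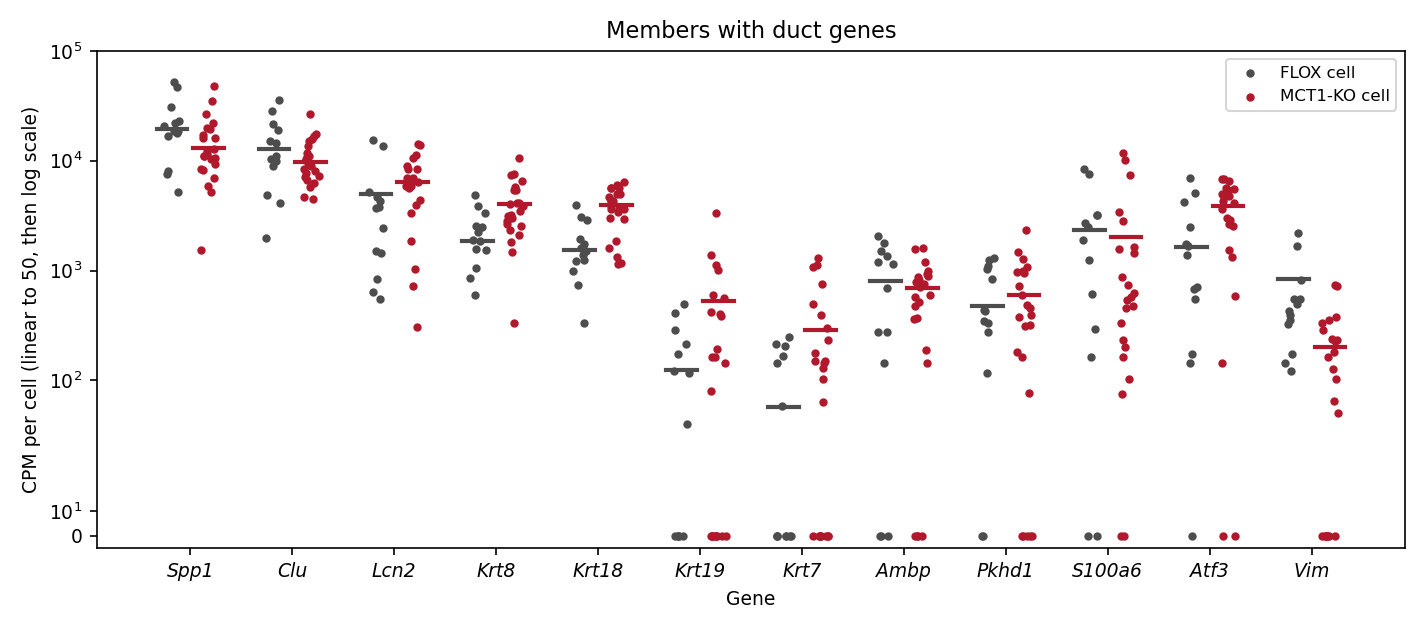
Values of single duct-gene members (1 point a cell, CPM, axis linear to 50 and log above, horizontal lines the CPM over the summed cells) in FLOX (13 cells) and MCT1-KO (23 cells) for genes named in the text. Spp1, Clu and Krt8 were found in every cell, and the points of the libraries overlap for every gene.

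Between the libraries, keratins were higher in the duct-gene members of MCT1-KO. Krt8 ranged over single cells from 596 to 4908 CPM in FLOX (median 1913) and from 330 to 10503 CPM in MCT1-KO (median 3483). Summed over cells the ratio MCT1-KO over FLOX was 2.19 (1.87 to 2.57). Krt18 ranged from 336 to 3927 CPM (median 1503) and from 1155 to 6422 CPM (median 3832), a ratio of 2.58 (2.17 to 3.08). The ranges overlapped for both genes. Krt19 and Krt7, which are also on the duct list, gave ratios of 4.26 (2.38 to 8.27) and 4.98 (2.15 to 14.2) from 13 and 6 FLOX UMIs. Of the 100 Krt19 UMIs of MCT1-KO, 43 lay in 1 cell. All 4 compared keratins were at least 2-fold higher, where 6.86% of the 802 genes compared between the duct-gene members were at least 2-fold higher in MCT1-KO and 5.86% at least 2-fold lower. Krt7 and Krt19 reached 50 UMIs only through MCT1-KO, which fixed their place in this count. Lrg1, a secreted glycoprotein of the acute phase, was at 592 CPM against 105 CPM, a ratio of 5.63 (3.03 to 11.6), and was found in 19 of 23 and 6 of 13 cells. Spp1 was 0.673-fold (0.634 to 0.714) and Clu 0.763-fold (0.710 to 0.819).

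These ratios moved when cells with UMIs of other cell types were left out. At least 3 UMIs of the 8 immune, collagen and endothelial genes were held by 6 of 13 duct-gene members in FLOX and 1 of 23 in MCT1-KO. Without these cells 7 and 22 remained. The ratio of Krt8 became 1.39 (1.14 to 1.70), of Krt18 1.69 (1.37 to 2.12), of Krt19 3.57 (1.58 to 9.98) and of Krt7 2.82 (1.03 to 10.8). Lrg1 stayed at 5.11-fold (2.13 to 16.1). Spp1 and Clu moved the other way, to 0.459-fold (0.428 to 0.493) and 0.498-fold (0.457 to 0.543).

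The largest ratios toward MCT1-KO were those of acinar enzyme genes. Try5, a trypsinogen gene, had 0 UMIs in the FLOX duct-gene members and 67 in those of MCT1-KO, Clps (colipase) stood at 239 against 2398 CPM, and Ctrb1 (chymotrypsinogen) at 172 against 1062 CPM. Clps and Ctrb1 are rule genes. Empty barcodes carried 41.4 CPM of Clps in FLOX and 2360 CPM in MCT1-KO, and the whole acinar list of 13 genes stood at 311 and 16008 CPM there. The largest ratios toward FLOX were those of S100a9, S100a8, Ptn, Il1b and Srgn, of which S100a8, S100a9, Il1b and Srgn are genes of myeloid cells. Single FLOX cells carried most of them, with 62 of 65 UMIs of Ptn, 156 of 191 of S100a8, 72 of 133 of S100a9, 49 of 58 of Il1b and 32 of 45 of Srgn in the highest cell for each gene. Of other lists, 2 of 7 junction genes (Dsp and Dsg2) and 3 of 13 duct genes (Krt19, Krt7 and Wfdc15b, the last a gene of the profile) were at least 2-fold higher in MCT1-KO and 0 lower. In the other direction 3 of 4 mesenchymal, 2 of 2 immune (Cd74 and S100a8) and 2 of 5 secreted signal genes were at least 2-fold lower and 0 higher. Over the 802 compared genes, 6.86% were higher and 5.86% lower. Dsp, Wfdc15b and S100a8 reached 50 UMIs mainly through the library where they were high, so these counts are a description.

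Several antigen presentation genes were higher in the FLOX duct-gene members. B2m, the light chain of MHC class I, ranged from 818 to 8479 CPM in FLOX (median 2429) and from 311 to 6385 CPM in MCT1-KO (median 752), and was 0.378-fold (0.319 to 0.448) in MCT1-KO. Without the cells holding other cell types' UMIs it was 0.510-fold (0.398 to 0.659). Cd74, the invariant chain of MHC class II, was found in 13 of 13 and 14 of 23 cells and was 0.264-fold (0.201 to 0.345), or 0.284-fold (0.199 to 0.406) without these cells. The immune list, which itself holds Cd74, stood at 4238 CPM over the FLOX duct-gene members and 623 CPM over those of MCT1-KO. It also holds S100a8, which gave 191 of its 444 FLOX UMIs, 156 of them in 1 cell. On the list of MHC and interferon genes 5 of 8 compared were at least 2-fold lower in MCT1-KO and 0 higher, beside 5.86 and 6.86% of the 802 compared genes. Cd74 is counted on this list as well as on the immune list. The count includes the cells holding other cell types' UMIs. Hspa1a, a heat shock protein induced by stress, was at 592 CPM in FLOX and 52.8 CPM in MCT1-KO, and Atf3, a stress-induced factor, was 2.35-fold (1.99 to 2.79) higher in MCT1-KO and 1.38-fold (1.13 to 1.69) without these cells. Empty barcodes held 253 and 20.1 CPM of Hspa1a, the same direction as the members.

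Hormone UMIs were kept apart from the other member genes. Ins1, Ins2, Gcg, Sst, Ppy, Pyy, Iapp and Ghrl summed to 1 UMI over the 21 FLOX members (0.000467% of their UMIs) and to 4476 over the 36 MCT1-KO members (1.52%, 1.47 to 1.56%). All of the latter lay in the 3 members with hormone genes. The deepest, with 15835 UMIs, held 975 UMIs of Gcg (glucagon), 707 of Ins2 and 600 of Ins1 (insulins), 649 of Pyy (peptide YY), 152 of Iapp (amylin) and 111 of Ppy (pancreatic polypeptide), beside 205 of Chga and 11 of Epcam. Alpha and beta cell hormones were thus counted under 1 barcode, and whether it held 1 cell or several was not tested. A second, with 9993 UMIs, held 950 of Gcg, 7 of Iapp, 1 of Ins1, 430 of Ttr and 82 of Chga with 5 of Epcam. The third, with 2805 UMIs, held 149 of Sst (somatostatin), 99 of Ppy, 62 of Pyy and 13 of Iapp. Resp18, a secretory granule gene, had 147 UMIs in 3 MCT1-KO members and 0 in FLOX members. Ghrl, the ghrelin gene, was at 0 in the MCT1-KO members, and the single hormone UMI of the FLOX members was 1 of Ghrl in a cell with stomach genes that also held 880 UMIs of Pgc.

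Most hormone RNA of the tumors lay outside the members. Kept cells held 1214 hormone UMIs in FLOX and 13021 in MCT1-KO, of which the members held 34.4% in MCT1-KO. An MCT1-KO cell with 15523 UMIs held 4836 of Ins2, 2058 of Ins1 and 991 of Iapp, with 142 of Chga, but it had 1 Epcam and 1 Pecam1 UMI and so failed the rule. In FLOX a cell of 11172 UMIs held 448 of Ppy and 341 of Gcg with 1 Epcam UMI, and a cell of 578 UMIs held 208 of Ins2 and 72 of Ins1 with no Epcam UMI. At least 1% hormone UMIs were held by 2 kept cells in FLOX and 6 in MCT1-KO. A hormone UMI was found in 0.687% of the Ptprc-positive cells of FLOX (median 6150 UMIs) and 2.92% of those of MCT1-KO (median 5082 UMIs), which should not make these hormones. Among members it was found in 1 of 21 and 3 of 36, and a level cannot be read from the single UMI in FLOX.

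**Figure D5:**
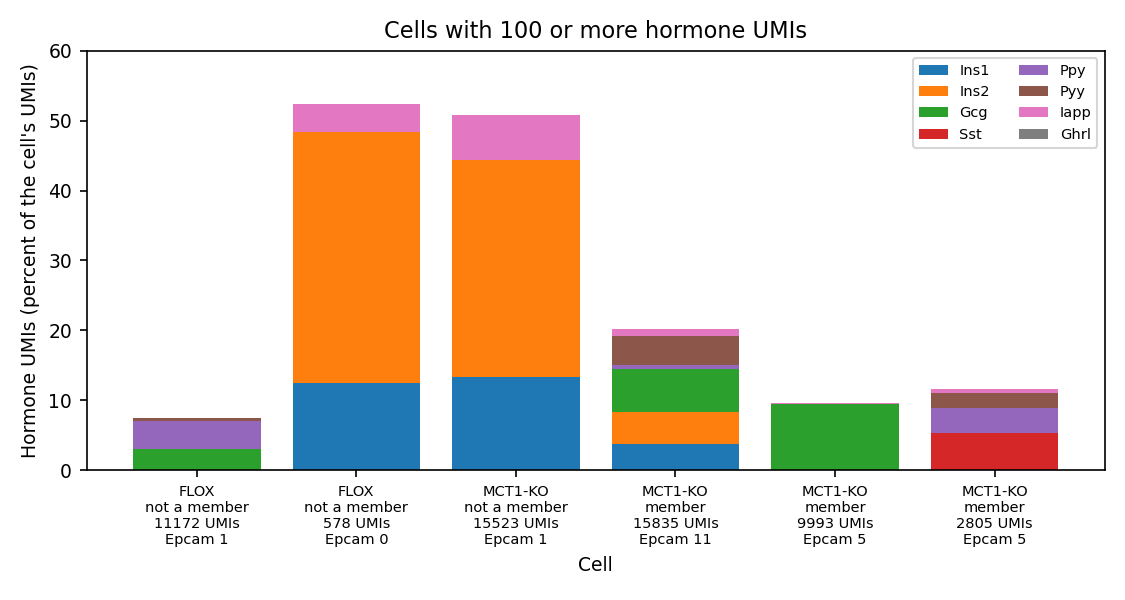
Share of each hormone gene in the UMIs of the 6 kept cells with at least 100 hormone UMIs, with library, membership, depth and Epcam UMIs under each bar. The 3 members, all in MCT1-KO, are led by Gcg with Ins2, Pyy and Ins1, by Gcg, or by Sst with Ppy and Pyy, and the cell richest in hormone UMIs by number was kept out by its 1 Epcam and 1 Pecam1 UMI.

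Members with stomach genes were found in FLOX alone. In these 5 cells the list of 14 gastric and intestinal genes took 28.7, 42.4, 28.4, 1.21 and 5.23% of the UMIs. Tff1, a trefoil peptide of surface mucous cells, had 3936, 6221 and 2347 UMIs in the first 3 of them and 0 in the others. The same 3 held together 6724 UMIs of Gkn1 and 5911 of Gkn2 (gastrokines) and 163 of the mucin Muc5ac, and the other 2 held 880 and 311 UMIs of Pgc (progastricsin), a pepsinogen of neck and chief cells. Tff2, a second trefoil peptide, had 1023, 208 and 317 UMIs in the first 3 cells and 0 and 670 in the others. Gsta1, a glutathione transferase, had 620 UMIs, all in the first 3. The 5 cells took 42.3% of all member UMIs of FLOX, so the member sums of that library lean on them, and the duct-gene values above leave them out. Car2 and Krt19 show this, with 182 and 138 UMIs in FLOX members but 7 and 13 in its duct-gene members.

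These genes were not limited to the members. At least 1% stomach-list UMIs were held by 14 kept FLOX cells, of which 5 had no Epcam UMI and 4 had 1, with a median of 1577 UMIs over these 9. No kept cell of MCT1-KO reached 1%, and its highest share was 0.198%. Empty barcodes stood at 240 CPM of the list in FLOX and 10.8 CPM in MCT1-KO. The labels give tumor as the tissue of both libraries, and how tissue of the stomach and pancreas was parted at harvest was not given in the sources used here.

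The 3 members with immunoglobulin genes held 39.7% (FLOX), 58.6% and 22.2% (MCT1-KO) of their UMIs from these genes. They also held 12 to 31 UMIs of Mzb1 and 5 each of Cd79a, genes of plasma and B cells chosen after the values were seen, beside 2 to 5 UMIs of Epcam and no Ptprc UMI. The 5 members with acinar-state genes held in all 149 UMIs of Dmbt1, a mucosal scavenger receptor, 74 of Eif2ak3, a sensor of protein folding, 71 of Itga6, the laminin-binding integrin, and 30 of Gatm, which makes the creatine precursor. Summed over the 5 cells, Reg3b, a C-type lectin of injured acinar cells, had 188 UMIs and Cdh1 39. The acinar enzyme genes of the rule took 1.83% of the UMIs of the FLOX cell and 0.286 to 0.793% in the MCT1-KO cells. The MCT1-KO duct-gene members had a median of 0.368%, and a member with no profile reached 3.22%. Prss2 had 48 UMIs in the FLOX cell and 3 over the 4 MCT1-KO cells, and Cpa1 had 1 and 0. The name of this profile thus does not rest on enzyme RNA and only labels its genes. Whether these cells were acinar cells was not tested. The 5 members with no profile differed from each other. The FLOX cell held 2958 UMIs. Of the 4 in MCT1-KO, 1 held 87 UMIs of Vim with 26 of Sox9, 1 held 42 of Vim with 36 UMIs of immune, collagen and endothelial genes, 1 held 705 of Try5 with 134 of Clu, and 1 held 751 UMIs in all.

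The lactate transporter genes Slc16a1 and Slc16a3 were at or near the floor in the members. Slc16a1 had 5 UMIs in FLOX members and 3 in MCT1-KO members, or 23.4 and 10.2 CPM, and the ratio of 0.436 (0.0677 to 2.24) did not show a difference at this depth (0.880 with 1 Epcam UMI allowed). Comparison cells stood at 35.0 and 45.2 CPM, a ratio of 1.29 (1.20 to 1.38). Slc16a3, which exports lactate, had 0 UMIs in all 57 members. Ldha, which makes lactate from pyruvate, was 0.424-fold (0.327 to 0.541) and 0.285-fold (0.218 to 0.367) the comparison level, and Pkm, a pyruvate kinase, 0.362-fold and 0.25-fold. Of the 14 compared genes of glycolysis and lactate transport, 6 in FLOX and 7 in MCT1-KO were at least 2-fold lower in members, beside 16.6 and 13% of all compared genes, and 1 was higher in each.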

How the data were processed

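Tumors were dissociated and single-cell 3′ RNA libraries were made from unsorted cells. The files hold counts: whole UMI counts per gene and barcode, deposited by the authors as a matrix over 32285 genes for each library with all barcodes, before cell calling. Per the study's methods and labels, reads were trimmed with Fastp and counted with SeekOneTools, and Seurat 4.0.0 was used downstream. The labels name the human build GRCh38, while the genes are mouse Ensembl genes, so the mouse build behind the counts is not given in the sources used here. The labels and methods also name different capture kits.

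From these counts, barcodes with at least 500 UMIs, 200 to 5000 genes and a mitochondrial share up to 8% were kept. No doublet caller was run, and 2 FLOX barcodes that met the rule had over 5000 genes and were left out. Counts were summed over each cell set and scaled to 1000000 (CPM), and genes with at least 50 UMIs over both sets were compared. Where the comparison set held 0 UMIs, 3 were used. Intervals are exact Poisson, Clopper-Pearson or conditional exact intervals at 95%, for counting error only. With 1 library a group no test was possible. The intervals and 2-fold calls for members over comparison cells were checked on simulated Poisson counts of the summed sets. That simulation held no variation between cells, and the rule, the profiles and the library ratios were not simulated. Motifs were searched on both strands in RefSeq promoters. The members, gene lists and profiles were chosen with earlier results of these data known. Named genes were those of the lists, the 15 highest and 10 lowest ratios against comparison cells, the 5 largest in each direction between libraries, Slc16a1 and Slc16a3. Mzb1, Cd79a, Dmbt1, Gatm, Itga6, S100a6, Lrg1 and others of the profiles were chosen after their values were seen. Alternatives were other Epcam, depth, mitochondrial and acinar limits, members without UMIs of other cell types, a subtraction of free RNA, and, added after seeing the data, the duct-gene members alone. Sums and intervals were computed with scipy 1.17.1 and numpy 2.4.6 in Python 3.11.15, tables handled with pandas 2.3.3 and plots drawn with matplotlib 3.10.9. Some genes are not reported here.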

Additional observations from a re-analysis of the deposited data

How the results depend on the processing

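With 1 library a group no replicate could be left out, and counting error is the only error given. No paired analysis was possible because the groups share 1 replicate number and hold 1 library each. Of 95 alternative values, 81 stayed within the counting interval or within 1.5 times of a count. The others were as follows. With 1 Epcam UMI allowed, the member share was 0.378% in FLOX and 0.548% in MCT1-KO, the hormone share in MCT1-KO 0.650%, and Y-linked UMIs 0.680 and 0.988 per 10000. The share of members with hormone genes, within its interval, was then 3.03% in FLOX and 4.69% in MCT1-KO. Without members holding UMIs of other cell types, the member share in FLOX was 0.114% and the hormone shares 0% and 1.86%. With an acinar limit of 1%, the hormone shares were 0% and 1.68%. The hormone share in MCT1-KO was also 1.65% at a mitochondrial limit of 5%, 1.73% with 3 Epcam UMIs, and 2.33% after subtraction of free RNA, which gave 2.75 Y-linked UMIs per 10000. Free RNA was scaled on acinar genes and estimated at 35.0% of member UMIs in MCT1-KO. This counts every acinar UMI of the members as free RNA, and 1 member reached an acinar share of 4.63%. Acinar RNA of the members' own would make the estimate too high. In FLOX the estimate exceeded 100% because members carried more UMIs of these genes than empty barcodes, so no value was made there. The FLOX members with stomach genes held 432 UMIs of Clps but 3 of Ctrb1 and 0 of Prss2. The highest FLOX share, 2.83%, was in one of them, and the FLOX duct-gene members held 25 UMIs of Clps. The Slc16a1 ratio had no value after that subtraction, nor without members holding UMIs of other cell types, where FLOX had 0 UMIs. The cause of these moves was not tested.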

Other observations

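Of the 18 cell cycle genes, 13 were at least 2-fold lower in MCT1-KO members and 0 higher, with a median ratio of 0.200, where 13% of all compared genes were lower. In FLOX members 3 were lower and 0 higher, with a median of 0.850, and 3 of 18 lies near the 16.6% of all compared genes that were lower. Top2a, a topoisomerase of dividing cells, had 15 UMIs in 7 FLOX members (70.1 CPM against 67.6 in comparison cells) and 2 UMIs in MCT1-KO members (6.78 against 76.4 CPM). Hmgb2 was 0.637-fold (0.459 to 0.861) and 0.317-fold (0.224 to 0.436) the comparison level. In the duct-gene members 1 gene of the list was lower and 2 higher in FLOX, beside 9.23% lower and 15.9% higher of all compared genes, and 12 were lower in MCT1-KO, beside 13.5% of all. The difference between the libraries was not tested.

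Secreted signals went both ways. Of the list of 21, 8 of 17 compared genes in FLOX and 8 of 18 in MCT1-KO were at least 2-fold lower in members, beside 16.6 and 13% of all compared genes, and 3 and 5 were higher, beside 12.4 and 16.1%. With the duct-gene members alone, 4 were lower and 4 higher in FLOX, beside 9.23% and 15.9% of all. In MCT1-KO 7 were then lower and 3 higher, beside 13.5% and 16.6%. Cxcl2, a neutrophil-attracting chemokine, was 0.317-fold (0.273 to 0.366) and 0.109-fold (0.0859 to 0.136) the comparison level, and Cxcl5 0.300-fold and 0.0443-fold. Lcn2 went the other way, 102-fold (91.0 to 114) and 104-fold (96.6 to 111). C3, the central complement protein, was 1.64-fold (1.32 to 2.01) and 3.70-fold (3.15 to 4.31). Of 18 MHC and interferon genes, 7 and 6 were at least 2-fold lower in members, beside 16.6 and 13% of all compared genes, and 0 higher. Among the duct-gene members of FLOX, 3 were lower and 1 higher, with a median ratio of 0.859 beside 0.848 over all compared genes. Among those of MCT1-KO, 9 were lower and 0 higher, beside 13.5% and 16.6% of all.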
